A study of Homo sapiens with 24 samples.

Results

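The interaction between nelfinavir and bortezomib was measured over all genes in HepG2 cells, an established human hepatoma line, as the change on adding nelfinavir in the presence of bortezomib minus the change on adding it alone. It rests on 16 of the 24 libraries of the series, 4 for each of 4 conditions: vehicle (DMSO), 50 nM bortezomib, 20 µM nelfinavir, and 50 nM bortezomib with 20 µM nelfinavir, all for 10 h. The other 8 libraries (50 nM ISRIB, alone or with bortezomib) entered the statistical fit to estimate the spread and are not in the contrast. The comparison asks whether the transcriptional answer to nelfinavir differs once the proteasome is inhibited. All conditions used the same parental line. The protocol calls the 4 replicates of a condition biological without saying whether they were separate cultures. The p-values therefore measure the spread between libraries, pooled over the 6 groups of the fit. Of 18915 genes in the counts, 12685 had enough counts to be tested. The interaction is given on the log2 scale: 0 means that the fold changes of the single agents multiply in the co-treatment, a positive value that the co-treatment level lies above this product, and a negative value that it lies below it.

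Bortezomib blocks the proteasome, the protease complex that degrades ubiquitin-tagged proteins, and cells respond to the unfolded proteins that build up by transcribing cytosolic chaperones through HSF1 and proteasome subunits through NFE2L1. Nelfinavir, developed as an inhibitor of the HIV protease, is known to raise the transcription factor ATF4, which is translated preferentially when eIF2α is phosphorylated and switches on genes of amino acid synthesis, amino acid uptake and tRNA charging. ATF4 is also an arm of the unfolded protein response (UPR) of the endoplasmic reticulum (ER), beside ATF6 and XBP1, which act on ER chaperones and on the machinery of protein import and degradation. Hepatoma cells carry a heavy load of secreted proteins through the ER.

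ATF6 acts with NF-Y on the ER stress response element (ERSE), ATF4 on composite C/EBP-ATF sites, searched here as the letters TGATGNAA, and HSF1 on heat shock elements. The upstream windows of 5 genes on the opposite sides of the interaction described below are shown because they hold such a motif. Those of *DDIT4*, *DNAJB1* and *CDC6* were also searched, held none of these motifs in the 250 bases before the start, and are not shown. Each window shown is the 250 bases before the gene start in RefSeq (GRCh38.p14, on the strand of the gene), written 5′ to 3′, with the motif in capitals. In *HSPA5* (chr9:125241344-125241593, minus strand), *HSP90B1* (chr12:103930160-103930409, plus strand) and *CRELD2* (chr22:49918384-49918633, plus strand) the capitals mark the ERSE on either strand, CCAAT and CCACG with 9 bases of any kind between them. In *ASNS* (chr7:97872409-97872658, minus strand) they mark TGATGNAA, and in *CHORDC1* (chr11:90223050-90223299, minus strand) 3 overlapping matches on either strand to a heat shock element, GAA, TTC and GAA with 2 bases of any kind between each.
HSPA5: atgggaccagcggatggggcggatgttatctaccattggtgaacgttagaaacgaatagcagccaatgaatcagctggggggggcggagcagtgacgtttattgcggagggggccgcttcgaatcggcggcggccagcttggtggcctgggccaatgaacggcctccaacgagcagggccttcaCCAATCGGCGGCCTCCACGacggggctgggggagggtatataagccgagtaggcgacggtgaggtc
HSP90B1: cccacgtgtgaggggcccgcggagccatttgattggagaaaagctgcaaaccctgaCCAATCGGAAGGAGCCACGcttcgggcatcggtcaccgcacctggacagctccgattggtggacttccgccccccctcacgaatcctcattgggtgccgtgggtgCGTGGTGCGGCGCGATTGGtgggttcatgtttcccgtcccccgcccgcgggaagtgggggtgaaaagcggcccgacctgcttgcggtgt
CRELD2: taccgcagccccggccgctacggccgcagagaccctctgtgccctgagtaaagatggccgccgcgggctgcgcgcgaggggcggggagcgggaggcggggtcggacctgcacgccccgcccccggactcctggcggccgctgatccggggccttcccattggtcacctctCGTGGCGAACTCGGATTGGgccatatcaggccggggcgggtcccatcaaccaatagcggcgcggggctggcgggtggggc
ASNS: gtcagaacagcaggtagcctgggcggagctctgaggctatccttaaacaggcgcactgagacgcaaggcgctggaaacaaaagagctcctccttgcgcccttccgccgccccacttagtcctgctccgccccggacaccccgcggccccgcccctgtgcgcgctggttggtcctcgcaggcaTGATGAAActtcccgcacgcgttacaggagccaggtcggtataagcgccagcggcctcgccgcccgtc
CHORDC1: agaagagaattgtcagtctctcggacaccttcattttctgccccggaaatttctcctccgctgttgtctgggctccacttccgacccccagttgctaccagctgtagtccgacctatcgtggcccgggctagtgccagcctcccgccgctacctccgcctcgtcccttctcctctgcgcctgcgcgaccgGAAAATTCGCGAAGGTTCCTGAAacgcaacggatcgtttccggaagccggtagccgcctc

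Total counts in the 16 libraries ran from 5380478 to 6943164. Replicates differed most in the co-treatment. The chi-square per degree of freedom between pairs of libraries of a group, larger where they differ more, ran from 3.989 to 20.31 there. In the other groups of the contrast it ran from 2.144 to 9.303, whereas the fit pools the spread over all groups. Levels are given as CPM, the read count of a gene over the library total, scaled with TMM factors of 0.8133 to 1.24. The share of mitochondrially encoded genes was 21.52% ± 1.32 in DMSO, 33.78% ± 1.19 in bortezomib, 20.47% ± 1.66 in nelfinavir and 27.16% ± 2.26 in the co-treatment (SD, n = 4 each). When these genes were left out of the totals and factors, the interaction, in edgeR's quasi-likelihood test, called 1215 genes higher and 1289 lower, beside the 1235 and 1269 given below. With library totals alone, the fold changes of bortezomib against DMSO shift by a median of -0.497 on the log2 scale, whereas the interaction shifts by -0.01, because the shift enters it with both signs. Statements about levels across the bortezomib boundary therefore depend on the scaling and those about the interaction hardly do. The marker sums that follow are the exception: they are CPM over library totals alone, without TMM factors, so their order across the bortezomib boundary depends on this choice. The 11 hepatocyte markers summed to 18300 to 20100 CPM in DMSO, 9820 to 10400 in bortezomib, 18600 to 20600 in nelfinavir and 6270 to 7930 in the co-treatment. Of 12 immune markers 5 were in the counts, with 98.5% of their sum on *LYZ* and a sum of 418 to 504 CPM in DMSO, 64.2 to 109 in bortezomib, 283 to 431 in nelfinavir and 57.8 to 107 in the co-treatment. Of 8 endothelial markers 3 were in the counts, at 2.23 to 8.1 CPM in all over the 16 libraries. Of 8 fibroblast and stellate markers 4 were, with 99.7% of their sum on *ACTA2* (31.9 to 45.6, 64.9 to 88.8, 41.8 to 61.9 and 48.9 to 52.6 CPM in the same order of groups), and their part in the results below was not tested.

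Departures from log-scale additivity were called for 2504 of the 12685 genes tested (19.7%), 1235 higher (9.74%) and 1269 lower (10.0%), in edgeR's quasi-likelihood test at an adjusted p under 0.05. Of these, 411 (3.24%) were over 2-fold higher and 549 (4.33%) over 2-fold lower than the product of the fold changes. In bulk RNA, a change in the number of cells that use a gene and a change in RNA per cell cannot be told apart. The contrast splits into the effect of nelfinavir without bortezomib and with it, which have no library in common. Nelfinavir alone raised 1320 genes (10.4%) and lowered 1121 (8.84%), and in the presence of bortezomib it raised 1974 (15.6%) and lowered 1694 (13.4%). Of the 1320 genes raised without bortezomib, 546 were also raised with it, 41.4% of the first list and 27.7% of the second, while 113 were lowered and 661 not called. Of the 1121 genes lowered without bortezomib, 240 were also lowered with it (21.4% and 14.2%), while 147 were raised and 734 not called. For bortezomib, of 3500 genes (27.6%) raised without nelfinavir, 2462 were among the 3639 (28.7%) raised with it, 70.3% and 67.7% of the lists, and of 3274 (25.8%) lowered, 2228 were among the 3600 (28.4%) lowered with it (68.1% and 61.9%). Across 9287 genes with a mean of at least 5 CPM, the effects of nelfinavir without and with bortezomib had a Pearson r of 0.231 and a Spearman rho of 0.219, against 0.775 and 0.759 for the effects of bortezomib without and with nelfinavir. These are descriptions across genes, which are not independent replicates.

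**Figure D1:**
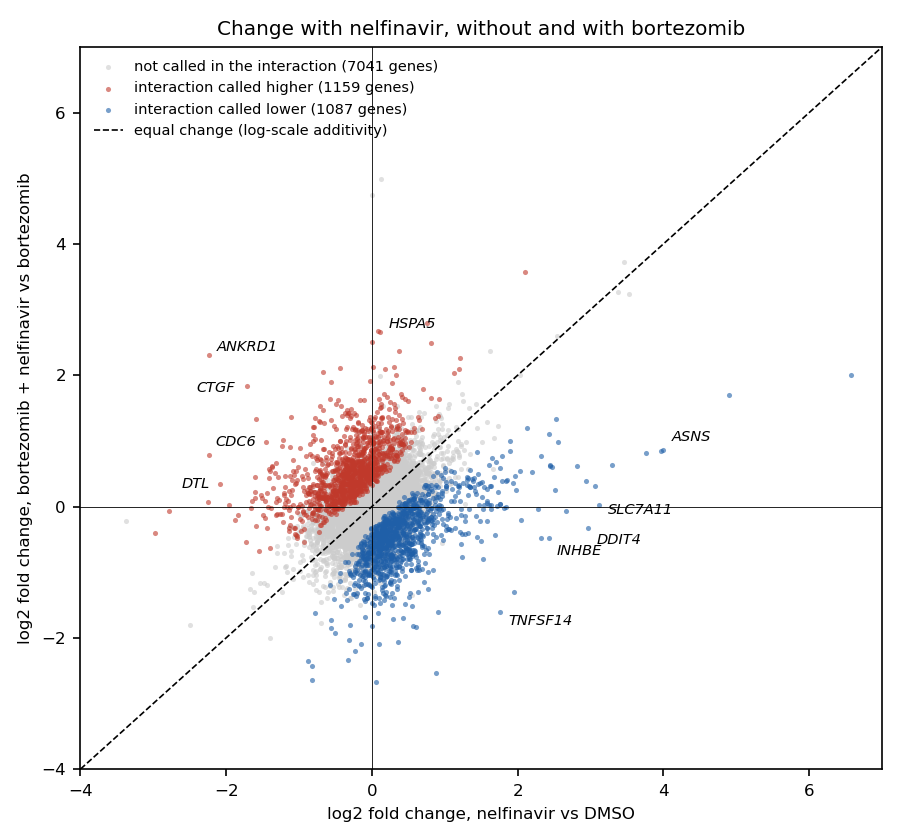
Each point is 1 of 9287 genes with a mean of at least 5 CPM, with the log2 fold change of nelfinavir against DMSO on the x axis and of bortezomib with nelfinavir against bortezomib on the y axis. Genes on the dashed line changed equally in both settings, 1159 red genes lie above it and were called higher in the interaction, and 1087 blue genes lie below it and were called lower.

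The position of the co-treatment level among the single agents is given for each direction. Of the 1235 genes called higher, the co-treatment mean lay above both single agents in 900 (72.9%), between them in 305 and below both in 30, and of the 1269 called lower it lay below both in 838 (66%), between them in 307 and above both in 124. Over all genes tested the 3 positions were about equally filled, with 31.5% above both, 32.1% between and 36.4% below both. This order compares levels across the bortezomib boundary, and with library totals alone 643 of the genes called higher lay above both and 996 of those called lower below both. If changes in CPM are expected to add rather than fold changes to multiply, the 1235 genes called higher all lie above the expectation (1234 with library totals alone). The sum is below 0 CPM for 136 of them. Of the 1269 called lower, 1241 lie below the sum, and the other 28 lie below the product and above the sum. Part of this is fixed in advance. Where both single agents move a gene the same way, the product exceeds the sum, so a level above the product also lies above the sum. Where they move it in opposite ways, a level below the product also lies below the sum. These counts are therefore no independent check of the calls.

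ATF4 targets lay on the lower side. Of 41 targets tested, 38 were called lower and 3 were not called, with a median interaction of -1.48 beside -0.02 over all genes. Over all genes, 9.74% were called higher and 10.0% lower, which is the background for each list below. Nelfinavir alone raised 40 of the 41 (10.4% of all genes), by a median of 1.68 on the log2 scale, and bortezomib alone raised 37 (27.6% of all genes), by a median of 1.65. With library totals alone bortezomib raised 31, beside 1490 of all 12685 genes. In the presence of bortezomib, nelfinavir raised 27 (15.6% of all genes) and lowered 2, with a median change of 0.49. The co-treatment mean of the 38 lay above both single agents in 22 genes, between them in 13 and below both in 3, and with library totals alone in 12, 21 and 5. Against the sum of the changes in CPM, 31 of the 38 lay below and 7 above. Of the 33 targets matched to a RefSeq promoter (250 bases before and 50 after the start), 8 hold TGATGNAA on either strand (24.2%), against 1.69% of the 9812 tested genes matched and 3.67% of all 27305 promoters. Of these 8, 7 were called lower (*ASNS*, *ATF3*, *MARS*, *SLC7A1*, *AARS*, *NARS* and *TARS*), beside 38 of all 41 targets, so the letters do not set these targets apart within the list. Among matched genes, 16 of 404 over 2-fold lower (3.96%) and 9 of 319 over 2-fold higher (2.82%) hold the letters.

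**Figure D2:**
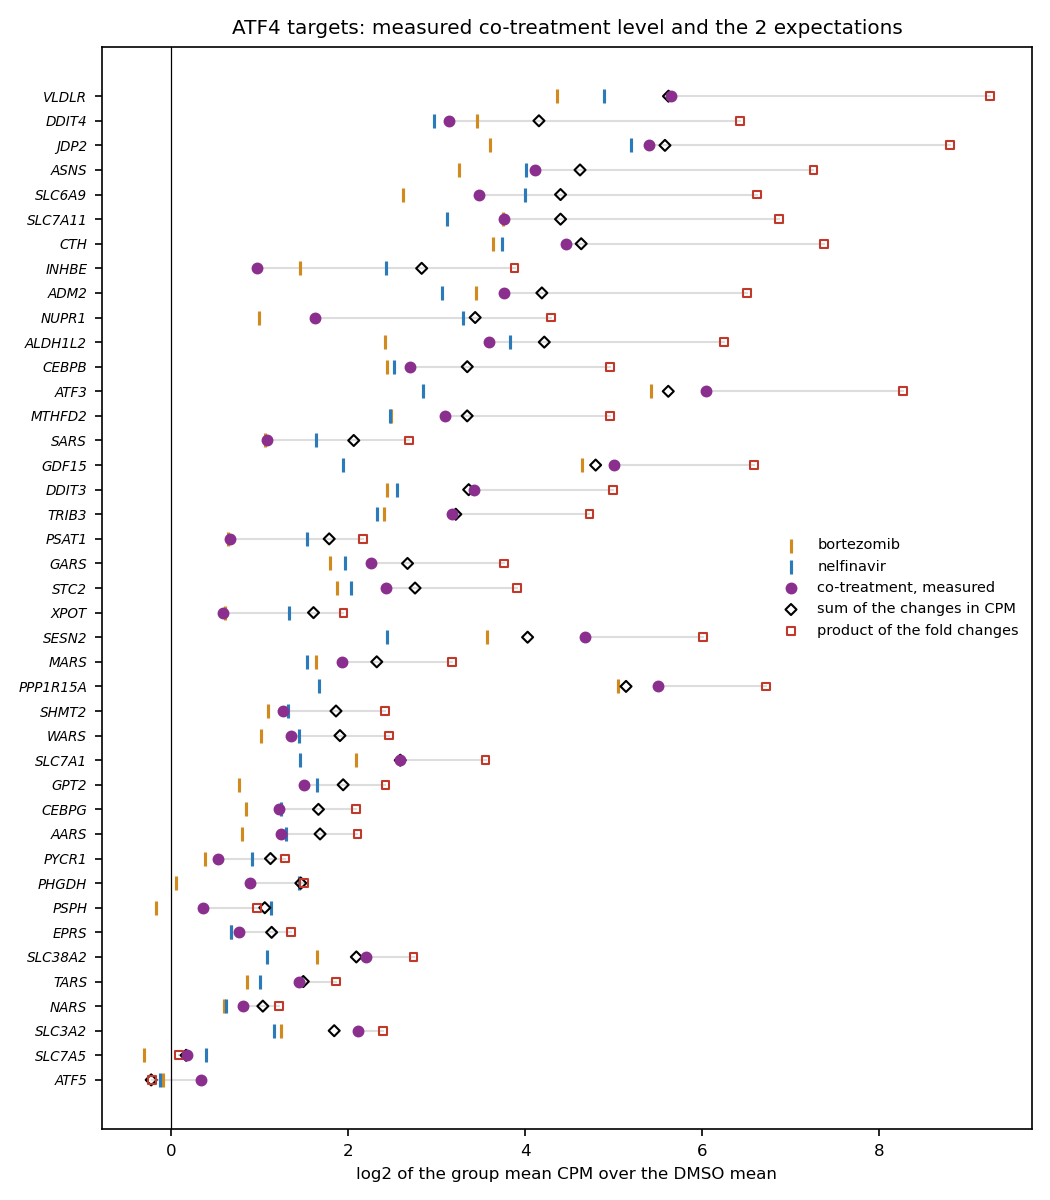
For each of the 41 ATF4 targets tested, ordered by interaction, the x axis gives the log2 of the group mean CPM over the DMSO mean for bortezomib and nelfinavir (ticks), the measured co-treatment (filled circles), the sum of the changes in CPM (diamonds) and the product of the fold changes (squares). The measured level lies left of the product in the 38 genes called lower and, in 7 of these, right of the sum.

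*DDIT4* (ENSG00000168209, chromosome 10 of GRCh37, 74033678 to 74035794), which encodes an inhibitor of the growth kinase complex mTORC1, had the smallest p of all genes. Its 4 libraries held 23.1, 18.3, 19.3 and 18.0 CPM in DMSO, 226, 197, 216 and 229 in bortezomib, 155, 153, 148 and 159 in nelfinavir and 166, 174, 188 and 166 in the co-treatment. The co-treatment libraries overlap neither single agent: all 4 lie below the 4 bortezomib libraries and above the 4 nelfinavir libraries. The order against nelfinavir depends on the scaling, and with library totals alone the co-treatment mean lies below both single agents. Orders against nelfinavir or DMSO given for other single genes likewise rest on TMM factors. The product of the fold changes is 1694 CPM and the sum of the changes 351 CPM, against a measured 174 ± 10.3 CPM (SD, n = 4; interaction -3.28, SE 0.127, adjusted p = 2.42e-19 by the quasi-likelihood F test of edgeR, adjusted after Benjamini and Hochberg as throughout). Nelfinavir raised *DDIT4* by 2.96 on the log2 scale without bortezomib, and with bortezomib *DDIT4* fell by 0.32 (adjusted p = 0.00438).

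*SLC7A11* (ENSG00000151012, chromosome 4, 139085251 to 139163503), the cystine transporter that feeds glutathione synthesis, was at 31.1, 35.8, 31.2 and 30.7 CPM in DMSO. It was at 426, 412, 425 and 464 CPM in bortezomib, 288, 269, 266 and 297 in nelfinavir and 504, 484, 342 and 421 in the co-treatment. The co-treatment libraries surround those of bortezomib, and the change with nelfinavir in the presence of bortezomib was 0.02 (adjusted p = 0.904). Against a product of 3758 CPM and a sum of 679.9 CPM, the interaction was -3.10 (SE 0.136, adjusted p = 6.55e-18). *ASNS* (ENSG00000070669, chromosome 7, 97480989 to 97501854), asparagine synthetase, held 17.2, 14.05, 13.1 and 17.0 CPM in DMSO, 134, 153, 129 and 168 in bortezomib, 268, 226, 245 and 248 in nelfinavir and 245, 266, 315 and 238 in the co-treatment. Here the co-treatment overlaps nelfinavir and lies above all bortezomib libraries, against a product of 2348 and a sum of 378 CPM (interaction -3.14, SE 0.16, adjusted p = 3.06e-16).

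*INHBE* (ENSG00000139269, chromosome 12, 57846106 to 57853063), which encodes a hepatic activin subunit, showed a co-treatment level below both single agents. Its libraries held 44.3, 53.9, 44.9 and 45.3 CPM in DMSO, 130.0, 145, 115 and 125 in bortezomib, 268, 226, 258 and 259.9 in nelfinavir and 101, 83.3, 97.4 and 86.9 in the co-treatment, with no overlap between any of the groups. The interaction was -2.91 (SE 0.134, adjusted p = 1.96e-17), against a product of 694 and a sum of 335 CPM. *PCK2*, the mitochondrial phosphoenolpyruvate carboxykinase, which is on none of the lists, also had a co-treatment mean below both single agents: 42.7 ± 5.14 CPM in DMSO, 65.4 ± 10.4 in bortezomib, 138 ± 7.43 in nelfinavir and 48.5 ± 3.79 in the co-treatment (SD, n = 4 each; interaction -2.12, SE 0.172, adjusted p = 3.95e-11). Its co-treatment and bortezomib libraries overlap. *ADM2*, which encodes a peptide hormone, was at 4.70 ± 0.553, 51.3 ± 3.59, 39.1 ± 3.69 and 63.9 ± 2.22 CPM in the same order of groups, above both single agents in the co-treatment and below the sum of 85.7 CPM (interaction -2.74). *S100P*, a calcium-binding protein gene on none of the lists, had an interaction of -2.56, with libraries at 29.2, 25.6, 29.2 and 26.3 CPM in DMSO, 266, 249.3, 252 and 239 in bortezomib, 238, 174, 205 and 229.5 in nelfinavir and 285, 294, 389 and 343 in the co-treatment. The co-treatment libraries lie above both single agents and below the sum of 436 CPM.

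Regulators of the pathway are described next. *DDIT3* (ENSG00000175197, chromosome 12, 57910371 to 57915520), encoding the pro-apoptotic factor CHOP, held 13.9, 14.8, 12.3 and 12.4 CPM in DMSO, 73.3, 72.9, 74.1 and 69.6 in bortezomib, 84.1, 65.9, 79.3 and 84.0 in nelfinavir and 132, 119, 167 and 156 in the co-treatment. Its co-treatment mean of 144 ± 21.8 CPM (SD, n = 4) is 1.05 times the sum of 137 CPM and 0.338 times the product of 425 CPM (interaction -1.56, SE 0.172, adjusted p = 2.61e-08). *TRIB3* (ENSG00000101255, chromosome 20, 343479 to 378203), the pseudokinase that restrains ATF4, was at 53.1 ± 4.19 CPM in DMSO, 281 ± 29.3 in bortezomib, 266 ± 38.5 in nelfinavir and 479.5 ± 65.2 in the co-treatment (SD, n = 4 each). Its co-treatment mean is 0.971 times the sum and 0.341 times the product (interaction -1.55, SE 0.146, adjusted p = 1.03e-09). *ATF4* itself (ENSG00000128272, chromosome 22, 39915700 to 39918688) held 234, 246, 219 and 233 CPM in DMSO, 556, 599, 558 and 697 in bortezomib, 964, 752, 889 and 859 in nelfinavir and 872, 921, 1409.8 and 1105 in the co-treatment. Co-treatment replicate 3 stands above the other 3, and the interaction of -1.06 (adjusted p = 1.14e-05) was -1.18 without it.

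Some targets exceeded the sum while lying below the product. *SESN2*, encoding a stress-induced inhibitor of mTORC1, was at 33.5, 31.0, 27.1 and 27.9 CPM in DMSO, 359, 374, 327 and 362 in bortezomib, 186, 140.4, 163 and 157 in nelfinavir and 593, 683, 983 and 801 in the co-treatment. All 4 co-treatment libraries lie above the sum of 487 CPM and below the product of 1925 CPM (interaction -1.33, adjusted p = 2.58e-06). *ATF3*, a stress-induced transcription factor, reached 1.34 times the sum and 0.214 times the product (interaction -2.20). *PPP1R15A*, the inducible phosphatase subunit that acts on eIF2α, was at 7.47 ± 1.195 CPM in DMSO, 247 ± 16.7 in bortezomib, 23.8 ± 5.68 in nelfinavir and 338 ± 17.4 in the co-treatment (SD, n = 4 each), 1.28 times the sum (interaction -1.22, adjusted p = 6.31e-06). Its constitutive partner *PPP1R15B* had an interaction of 0.39 that was not called (adjusted p = 0.255).

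Lists of amino acid supply share members with the ATF4 list. Of 20 amino acid synthesis and one-carbon genes (10 shared), 14 were called lower and 6 not called (median -0.77). *MTHFD2* and *SHMT2*, enzymes of mitochondrial folate metabolism, had interactions of -1.87 and -1.15. *BCAT1*, the cytosolic branched-chain aminotransferase, had one of -1.73. Of 20 tRNA synthetases (8 shared), 11 were called lower and 1 higher (median -0.41; 0 higher without DMSO replicate 1 or nelfinavir replicate 4 and 2 without co-treatment replicate 4), among them *GARS* (-1.50, adjusted p = 1.02e-12), *CARS* (-1.73), *SARS* (-1.60) and *MARS* (-1.24). *GARS*, the glycyl-tRNA synthetase, held 99.8 ± 2.94 CPM in DMSO, 346 ± 13.3 in bortezomib, 389.5 ± 33.1 in nelfinavir and 476 ± 26.7 in the co-treatment (SD, n = 4 each), against a sum of 636. Of 13 amino acid transporters (6 shared), 7 were called lower, including *SLC1A4* (-1.72), *SLC6A9* (-3.12) and *SLC1A5* (-1.37), and 1 higher, *SLC7A6* (1.37, adjusted p = 7.38e-06).

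ER chaperones lay on the opposite side. Of 13 ATF6 targets, 11 were called higher, 1 lower and 1 not called, with a median interaction of 1.19, and in each of the 11 the co-treatment mean lay above both single agents (10 of the 11 with library totals alone). Nelfinavir without bortezomib raised 2 of the 13 and lowered 1 (median -0.14), and with bortezomib it raised 12 and lowered 1 (median 1.21). *HSPA5* (ENSG00000044574, chromosome 9, 127997132 to 128003661), encoding the ER chaperone BiP, held 1399, 1454, 1455 and 1526 CPM in DMSO, 2277, 2147, 1904 and 2203 in bortezomib, 1733, 1398, 1683 and 1506 in nelfinavir and 11471, 12289, 16935 and 12948 in the co-treatment. The 4 co-treatment libraries stand far above the other 12, whose highest value is in bortezomib. A product of 2311 CPM and a sum of 2254 CPM were expected, and the measured mean of 13411 ± 2426 CPM (SD, n = 4) is 5.8 and 5.95 times these (interaction 2.54, SE 0.14, adjusted p = 2.65e-15). Co-treatment replicate 3 is the highest, and without it the interaction was 2.44.

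*HSP90B1*, encoding the ER chaperone GRP94, was at 1233, 1198, 1221 and 1199 CPM in DMSO, 1783, 1765, 1526 and 1581 in bortezomib, 1101, 1234, 899.7 and 960.1 in nelfinavir and 3831, 4450.3, 3402 and 3193 in the co-treatment. The co-treatment is apart from the other groups, at 2.59 times the product (interaction 1.37, adjusted p = 8.21e-09). *SDF2L1* (ENSG00000128228, chromosome 22, 21996591 to 21998588), a cofactor of BiP, was at 72.7, 82.3, 55.5 and 64.3 CPM in DMSO, 61.4, 56.0, 52.2 and 55.5 in bortezomib, 53.7, 53.8, 53.4 and 42.0 in nelfinavir and 235, 235, 273 and 229.6 in the co-treatment. Its means under both single agents are below that of DMSO, the co-treatment is apart from the other 12 libraries, and the interaction was 2.55 (SE 0.192, adjusted p = 6.9e-12). *CRELD2*, an ER protein secreted under stress, had group means of 58.0 ± 2.44 CPM in DMSO, 32.5 ± 4.52 in bortezomib, 45.9 ± 2.77 in nelfinavir and 89.4 ± 21.15 in the co-treatment (SD, n = 4 each; interaction 1.80, adjusted p = 5.47e-09).

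In the promoters, the ERSE letters occur in 22 of all 27305 windows (0.0806%) and in 13 of the 9812 tested genes matched (0.132%). Of these 13, 6 were called higher, 1 lower and 6 not called. The 6 are the ATF6 list members *HSPA5*, *HSP90B1*, *CRELD2* and *CALR*, with *FICD* (interaction 1.31), encoding an enzyme that modifies BiP, and *ERO1LB* (1.05), an oxidase of disulfide formation, both named after their values were seen. The ERSE begins 66 bases before the start in *HSPA5* and 80 in *CRELD2*, and *HSP90B1* holds it at 194 and 89 bases, as in the sequences above. The ATF6 list was drawn up from genes known for such sites, and 6 of its 13 members hold the letters (46.2%). *XBP1*, which also holds them, was the list member called lower (-0.44, adjusted p = 0.0296), a call lost without a filter on low counts (adjusted p = 0.0969) and without any 1 of 12 of the 16 libraries (adjusted p up to 0.105).

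Of 30 XBP1 targets, 11 were called higher, 1 lower and 18 not called, with a median of 0.27. The call lower, of *KDELR2* (-0.40, adjusted p = 0.0366), was lost without a filter on low counts and without any 1 of 10 of the 16 libraries. *DNAJB11* (1.16, adjusted p = 5.3e-10) and *DNAJC3* (1.30), J-domain partners of BiP, were among those called higher, with *SPCS3* of the signal peptidase (0.76) and *SSR3* of the translocon-associated complex (0.59). Nelfinavir raised 13 of the 30 without bortezomib and 20 with it, and the median with bortezomib was 0.65 against 0.20 without. Among 12 sensors, eIF2 kinases and phosphatase subunits, 4 were called higher and 6 lower. *EIF2AK3*, the ER kinase PERK, had an interaction of 0.92 (adjusted p = 0.0016), *EIF2AK1*, the heme-regulated kinase, one of -0.68, *ERN1*, the sensor IRE1 that splices *XBP1*, one of -0.98, and *CREB3L2*, a membrane-bound factor related to ATF6, one of 1.32.

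**Figure D3:**
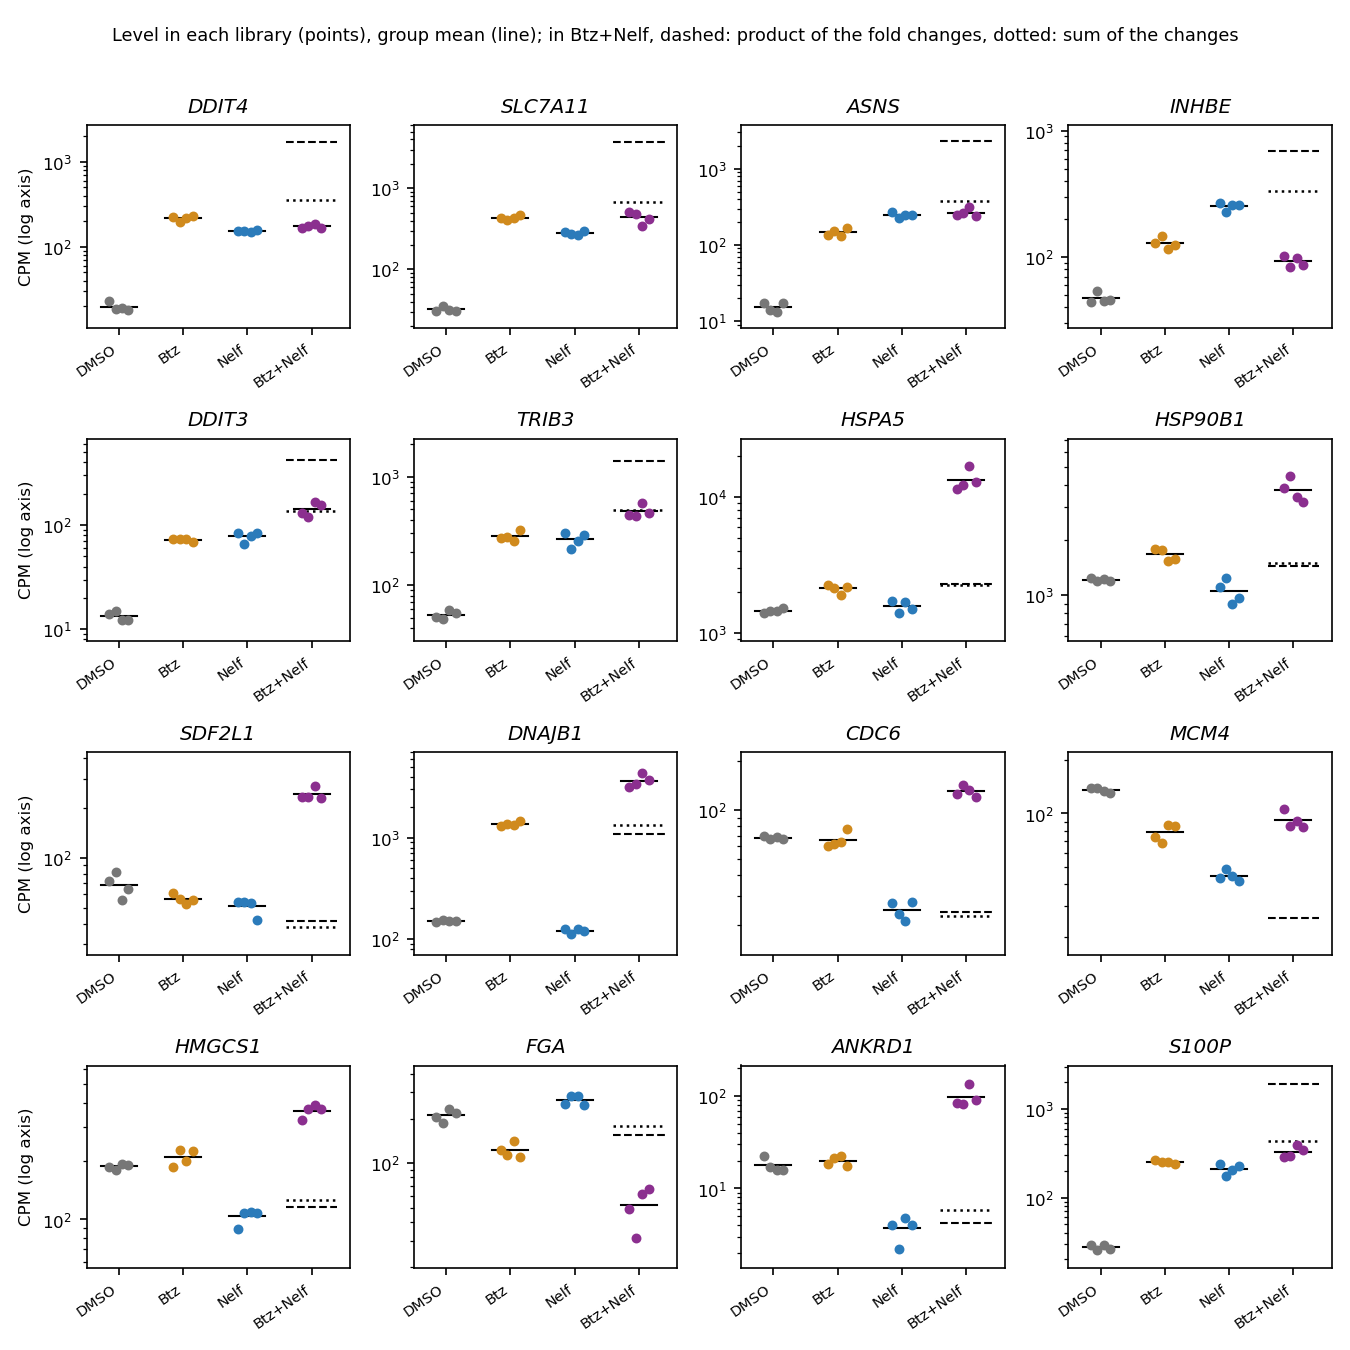
Level of 16 genes in each library (points, CPM on a log axis) in DMSO, bortezomib (Btz), nelfinavir (Nelf) and the co-treatment, with group means as lines and the product (dashed) and, where above 0, the sum (dotted) expected in the co-treatment. The co-treatment points lie below the dashed line for *DDIT4*, *SLC7A11*, *ASNS*, *INHBE*, *DDIT3*, *TRIB3*, *FGA* and *S100P* and above it for the other 8 genes.

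Heat shock chaperones, which HSF1 switches on, lay above the product in part. Of 25 heat shock chaperones tested, 16 were called higher and 9 not called (median 0.95, and 0.91 without *HSPA6* and *HSPB8*, which have a group at 0 counts). In each of the 16, the co-treatment mean lay above both single agents, with library totals alone too. The direction of the nelfinavir effect turned in this list: without bortezomib 14 of the 25 fell and 2 rose (median -0.31), and with bortezomib 18 rose and 1 fell (median 0.60), 12 of them genes that had fallen without it. *DNAJB1* (ENSG00000132002, chromosome 19, 14625581 to 14671203), the J-domain partner of HSP70, held 147, 154, 152 and 152 CPM in DMSO, 1311, 1370.1, 1324 and 1477 in bortezomib, 125, 112, 125 and 120.2 in nelfinavir and 3185, 3399.7, 4395 and 3679.9 in the co-treatment. No groups overlap, and nelfinavir is the lowest of the 4. The interaction was 1.74 (SE 0.122, adjusted p = 1.12e-12), with a product of 1093 and a sum of 1339.9 CPM.

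*HSPH1*, a nucleotide exchange factor of HSP70, was at 358, 333, 309 and 288 CPM in DMSO, 2179, 1956, 1805 and 1740.3 in bortezomib, 231, 199, 154 and 154 in nelfinavir and 4193, 4484, 5334 and 3859 in the co-treatment (interaction 2.02, adjusted p = 3.71e-11). Its nelfinavir libraries lie below and its co-treatment libraries above each of the others. *HSPA1A*, the inducible HSP70, was at 74.2 ± 4.48 CPM in DMSO, 3344 ± 114 in bortezomib, 31.9 ± 3.92 in nelfinavir and 6757 ± 1145 in the co-treatment (SD, n = 4 each; interaction 2.23, adjusted p = 1.08e-11). Reads of *HSPA1A* and its near-identical copy *HSPA1B* may be split between them, so its own values are uncertain. *CHORDC1*, an HSP90 cochaperone whose upstream sequence is given above, had an interaction of 1.79 (adjusted p = 7.48e-11). The letters of the heat shock element occur in 5 of 23 chaperone promoters matched (21.7%), against 0.306% of tested genes, and 2 of these 5, *CHORDC1* and *DNAJA1*, were called higher.

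Genes of DNA replication had the largest share of members called higher after the ATF6 targets. Of 44 tested, 33 were called higher (75%) and 11 not called, with a median of 1.08 and a range of 0.16 to 2.56. Nelfinavir alone lowered 43 of the 44, with a median change of -1.12 (8.84% of all genes were lowered). Bortezomib alone lowered 22 (25.8% of all genes) and raised 5 (27.6% of all genes). With library totals alone bortezomib lowered 38, beside 6265 of all 12685 genes. In the presence of bortezomib, nelfinavir raised 7 and lowered 7 (median -0.01). The co-treatment mean of the 33 lay above both single agents in 20 and between them in 13, and with library totals alone above both in 14, between them in 14 and below both in 5. For 11 of the 33 the sum of the changes is below 0 CPM. Against DMSO, the co-treatment lowered 26 of the 44 and raised 8 (median -0.48), beside 3941 lowered and 3857 raised of all 12685 genes. With library totals alone it lowered 35 and raised 3, beside 6657 and 1936 of all genes. Of 37 mitosis genes, 3 were called higher (1 with library totals alone, and 1 or 5 without any 1 of 6 libraries) and 1 lower (0 without a filter on low counts and without any 1 of 5 libraries), with a median of 0.12 and with 22 lowered by nelfinavir without bortezomib and 17 with it. The calls are 8.11% and 2.7% of the list, against 9.74% and 10.0% of all genes. Nelfinavir lowered 8.84% of all genes without bortezomib and 13.4% with it.

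*CDC6* (ENSG00000094804, chromosome 17, 38444131 to 38460909), which loads the replicative helicase at origins, held 69.5, 66.6, 68.7 and 66.9 CPM in DMSO, 60.5, 61.8, 64.2 and 76.5 in bortezomib, 26.98, 23.1, 21.02 and 27.5 in nelfinavir and 126, 142, 132 and 121 in the co-treatment. Nelfinavir lies below all other libraries and the co-treatment above them, so that nelfinavir changed *CDC6* by -1.46 without bortezomib and by 0.99 with it (log2 scale, adjusted p = 1.67e-13 and 1.53e-09). The interaction was 2.45 (SE 0.138, adjusted p = 3.69e-15). *MCM4*, a subunit of that helicase, was at 139, 139, 134 and 131 CPM in DMSO, 73.5, 68.0, 86.4 and 85.1 in bortezomib, 43.0, 48.6, 44.5 and 41.7 in nelfinavir and 106, 85.3, 91.1 and 83.5 in the co-treatment. Its co-treatment level overlaps bortezomib alone, where a product of 25.6 CPM was expected (interaction 1.84, adjusted p = 3.91e-12). *DTL*, which targets the licensing factor CDT1 for degradation, was at 35.7 ± 1.252 CPM in DMSO, 32.1 ± 1.73 in bortezomib, 8.38 ± 1.54 in nelfinavir and 40.7 ± 9.13 in the co-treatment (SD, n = 4 each; interaction 2.43). *FEN1*, the flap endonuclease, had an interaction of 1.55, and the mismatch repair gene *MSH6* and the chromatin ATPase *ATAD2*, on none of the lists, had 1.84 and 1.59. *ZNF367*, a zinc finger gene, was at 14.1 ± 1.72, 3.75 ± 1.77, 2.97 ± 0.489 and 6.49 ± 0.85 CPM in DMSO, bortezomib, nelfinavir and co-treatment (SD, n = 4 each; interaction 3.02).

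Of 22 cholesterol synthesis genes, 11 were called higher and 11 not called (median 0.65). Nelfinavir lowered 8 without bortezomib (median -0.37) and raised 8 with it (median 0.24). *HMGCS1* (ENSG00000112972, chromosome 5, 43287572 to 43313614), an early enzyme of the pathway, held 186, 180.3, 193 and 192 CPM in DMSO, 186, 228, 199.96 and 226 in bortezomib, 89.8, 108, 109 and 108 in nelfinavir and 327, 372, 390.2 and 371 in the co-treatment. Nelfinavir alone is below and the co-treatment above all other libraries (interaction 1.66, SE 0.123, adjusted p = 4.6e-12). *SQLE* and *MSMO1*, later enzymes of the pathway, had interactions of 0.97 and 1.05.

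**Figure D4:**
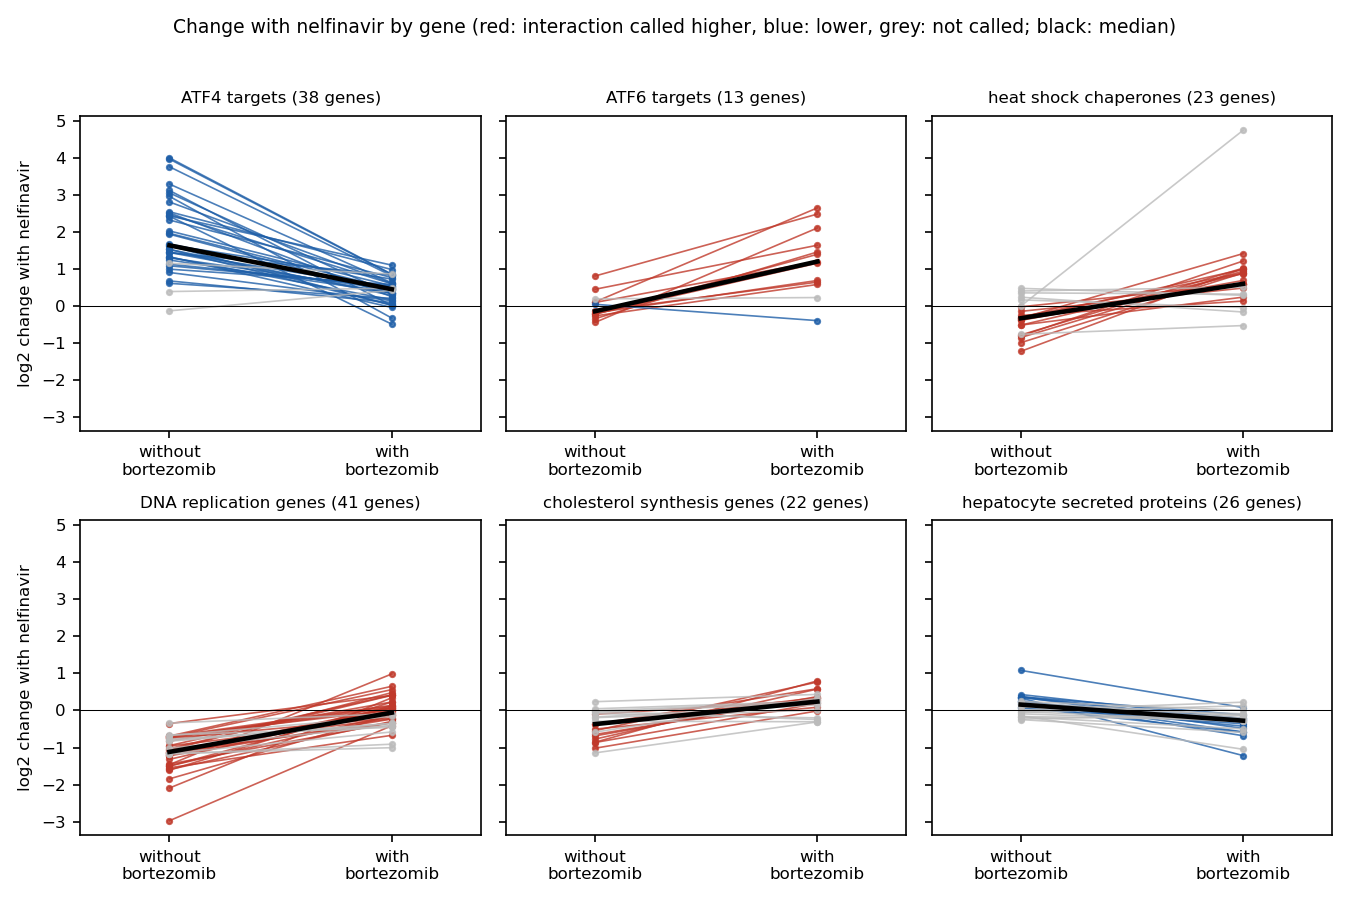
Log2 change with nelfinavir without bortezomib (left) and with it (right) for the members of 6 lists with a mean of at least 5 CPM, each line a gene, coloured by its call in the interaction, with the median in black. The median falls from 1.64 to 0.46 in 38 ATF4 targets and from 0.16 to -0.28 in 26 secreted proteins, and rises from -0.14 to 1.21 in 13 ATF6 targets, from -0.33 to 0.60 in 23 chaperones, from -1.12 to -0.06 in 41 replication genes and from -0.37 to 0.24 in 22 cholesterol genes.

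Of 29 secreted hepatocyte proteins, 13 were called lower and 16 not called (median -0.35). The hepatocyte markers summed above without TMM factors, some of which are on this list, were also lowest in the co-treatment. In 12 of the 13 called lower the co-treatment mean lay below both single agents, with library totals alone too. Nelfinavir raised 8 of the 29 without bortezomib, and with it raised 1 and lowered 13. *FGA*, the fibrinogen alpha chain, held 206, 188, 233 and 218 CPM in DMSO, 122, 114, 141 and 109.7 in bortezomib, 251, 282, 285 and 248 in nelfinavir and 48.8, 31.3, 62.1 and 66.4 in the co-treatment. Nelfinavir is the highest and the co-treatment the lowest group, without overlap (interaction -1.55, SE 0.186, adjusted p = 1.45e-07). *APOA2*, a protein of high-density lipoprotein, was at 2289 ± 121 CPM in DMSO, 1234 ± 39.9 in bortezomib, 2749 ± 120.1 in nelfinavir and 826 ± 55.3 in the co-treatment (SD, n = 4 each; interaction -0.84). *AMBP*, the precursor of alpha-1-microglobulin, and *FGB*, the fibrinogen beta chain, had interactions of -0.69 and -0.66.

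Of 19 hepatocyte transcription factors, 5 were called lower and 4 higher (2 higher without co-treatment replicate 2). *HNF4A*, the nuclear receptor that maintains hepatocyte genes, held 105, 105, 111 and 106 CPM in DMSO, 98.8, 77.3, 86.6 and 83.8 in bortezomib, 159, 153, 168 and 159 in nelfinavir and 65.3, 46.8, 52.0 and 70.9 in the co-treatment. Nelfinavir raised it and the co-treatment lies below every other library (interaction -1.14, adjusted p = 2.25e-06). The bile acid receptor *NR1H4* had an interaction of -0.93 and its target *NR0B2*, a repressor, one of -1.13. Their levels differ: against DMSO, *NR1H4* was at 0.356 times in the co-treatment. *NR0B2* was at 5.74 times DMSO in bortezomib, 2.85 times in nelfinavir and 7.47 times in the co-treatment. *FOXA2*, a pioneer factor of the liver, was at 78.6 ± 2.63 CPM in DMSO, 30.7 ± 2.25 in bortezomib, 92.1 ± 3.80 in nelfinavir and 75.1 ± 6.13 in the co-treatment (SD, n = 4 each), above the product (interaction 1.06, adjusted p = 7.99e-07).

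NFE2L2 (NRF2) switches on antioxidant and detoxification genes. Of 22 NFE2L2 targets, 14 were called lower and 8 not called (median -0.62), and nelfinavir raised 13 without bortezomib, and raised 2 and lowered 6 with it. Beside *SLC7A11*, which is on this list too, *OSGIN1* (-1.59, adjusted p = 7.14e-09) and the transporters *ABCC3* (-1.23) and *ABCC2* (-0.90) were among these. Of 28 autophagy and lysosome genes, 9 were called lower and 19 not called (median -0.33). *SQSTM1*, the receptor p62, held 235, 228, 199 and 206 CPM in DMSO, 937, 894, 902 and 909 in bortezomib, 532, 354, 398 and 470.4 in nelfinavir and 715, 731, 756 and 768 in the co-treatment. The co-treatment lies between the single agents without overlap, as nelfinavir raised *SQSTM1* by 1.01 without bortezomib whereas it fell by 0.29 with it (interaction -1.31, adjusted p = 3.65e-09). *ULK1*, the initiating kinase, had an interaction of -1.66, *MAP1LC3B*, of the autophagosome membrane, one of -1.44, and the lysosomal protease *CTSB* one of -1.11.

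Of 43 proteasome subunits, 2 were called higher, 6 lower and 35 not called (median -0.11), and bortezomib alone raised 37 (27.6% of all genes). With library totals alone bortezomib raised 25, beside 1490 of all 12685 genes. The count called higher in the interaction was 5 in DESeq2, and 4 without a filter on low counts, with only the 16 libraries, with the replicate block, and without bortezomib replicate 1 or co-treatment replicate 1, 2 or 4. Among those called were *PSMC1* of the base (0.97, adjusted p = 0.00516) and *PSMB4* of the core (-0.54, adjusted p = 0.000351), and *PSMB1*, also of the core, had -0.51. Nelfinavir in the presence of bortezomib lowered 11 of the 43 (13.4% of all genes) and raised 2 (15.6% of all genes). *NFE2L1*, the factor that induces proteasome genes, was at 45.7 ± 2.69 CPM in DMSO, 75.2 ± 3.20 in bortezomib, 64.6 ± 4.06 in nelfinavir and 68.1 ± 8.89 in the co-treatment (SD, n = 4 each; interaction -0.64, adjusted p = 0.00083). Of 18 NFE2L1 and ubiquitin pathway partners 5 were called higher and 6 lower, with *VCP*, the segregase that extracts ubiquitinated proteins, at 0.52 and *ZFAND5* at -0.72. The count called higher was 3 with library totals alone, without DMSO replicate 1 or without nelfinavir replicate 3, and 2 without DMSO replicate 4 or nelfinavir replicate 2. Of 54 cytosolic ribosomal proteins, 2 were called lower (median -0.02), *RPL12* and *RPS18*, at -0.30 and -0.36 (adjusted p = 0.0414 and 0.0453). Neither was called with RLE factors, without a filter on low counts or when only the 16 libraries were fitted, and leaving out 1 library changed the count in 13 of 16 cases, to 0 or 1.

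Among 23 genes of the BCL2 family and death receptors, 2 were called higher and 5 lower (median 0.02), and the lower count was 3 without DMSO replicate 4, bortezomib replicate 1 or co-treatment replicate 1 and 2 without bortezomib replicate 4. The calls are 8.7% and 21.7% of the list, against 9.74% and 10.0% of all genes. *BCL2L11*, encoding the pro-apoptotic protein BIM, held 13.4, 15.1, 12.7 and 14.9 CPM in DMSO, 19.0, 12.4, 13.3 and 11.02 in bortezomib, 11.1, 12.8, 9.73 and 12.2 in nelfinavir and 48.0, 42.7, 37.9 and 27.4 in the co-treatment. The other 3 groups overlap and the co-treatment lies above them (interaction 1.77, SE 0.24, adjusted p = 1.39e-06). *BBC3*, encoding PUMA, was raised by both single agents and lay below the product (-0.98, adjusted p = 0.00251) and at 1.04 times the sum. The death receptor *TNFRSF10B* had an interaction of -0.58. Of 24 p53 targets, 5 were called lower (20.8%) and 1 higher (4.17%; 2 higher in DESeq2 and without co-treatment replicate 1), and *MDM2*, the ligase of p53, went from 266 CPM in bortezomib to 143 in the co-treatment, near 149.7 in DMSO and 145 in nelfinavir (interaction -0.86, adjusted p = 1.67e-06).

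Of 23 AP-1 and immediate early genes, 6 were called higher and 4 lower. *IER3* (1.18), *IER5* (1.46) and *IER2* (1.25) were above the product and *KLF6* (-1.54, adjusted p = 1.5e-08) below it. Of 13 Wnt feedback genes, 7 were called higher and 6 not called (median 0.81). Bortezomib alone lowered 13 of the 13 (25.8% of all genes), and nelfinavir alone 8 (8.84% of all genes). Against DMSO, the co-treatment also lowered 13 of the 13 (median -1.53), beside 3941 of all 12685 genes. For 6 of the 7 called higher the sum of the changes is below 0 CPM. *DKK1*, a secreted Wnt antagonist, held 51.9, 64.5, 57.9 and 64.4 CPM in DMSO, 11.1, 9.30, 10.8 and 12.96 in bortezomib, 8.48, 8.77, 7.65 and 9.60 in nelfinavir and 11.2, 15.9, 10.8 and 4.69 in the co-treatment. Each treatment is below DMSO and the 3 overlap, whereas the product is 1.59 CPM (interaction 2.72, adjusted p = 2.06e-08). *AXIN2*, a feedback inhibitor, had an interaction of 1.49, and the glucose transporter *SLC2A3*, with 292 CPM in DMSO and 89.3, 96.2 and 97.5 in bortezomib, nelfinavir and both, one of 1.73.

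Of 23 hypoxia and glycolysis genes, 5 were called higher and 3 lower (median 0.10; 1 lower without any 1 of DMSO replicates 2, 3 and 4, bortezomib replicates 3 and 4 and nelfinavir replicate 4). *HK2*, hexokinase 2, held 38.8, 46.3, 51.9 and 49.9 CPM in DMSO, 29.7, 32.2, 30.4 and 44.5 in bortezomib, 40.5, 39.3, 44.6 and 48.8 in nelfinavir and 73.9, 89.9, 66.6 and 64.0 in the co-treatment. The co-treatment lies above the other 12 libraries (interaction 1.21, adjusted p = 0.000302). *ADM*, which encodes the vasodilator adrenomedullin, was at 9.29, 10.0, 9.23 and 11.4 CPM in DMSO, 29.1, 26.2, 29.8 and 31.1 in bortezomib, 7.64, 9.42, 11.3 and 7.92 in nelfinavir and 58.1, 59.9, 87.8 and 55.3 in the co-treatment, with DMSO and nelfinavir overlapping and the other groups apart (interaction 1.31, adjusted p = 0.000181). *P4HA1*, a prolyl hydroxylase of collagen, lay below the product (-0.63, adjusted p = 0.00399). Of 11 polyamine genes, 2 were called higher, the spermine synthase *SMS* (0.77) and the decarboxylase *AMD1* (0.45), and 2 lower, the oxidase *SMOX* (-0.94) and the ornithine decarboxylase *ODC1* (-0.80). Of 17 histone genes, 2 were called higher (1 without any 1 of 7 libraries) and 1 lower, with *HIST1H2BK* at 2.25 and the linker histone *H1F0* at -1.33, and of 8 metallothionein and zinc transport genes 1 was called higher (0 without any 1 of 7 libraries), and nelfinavir raised 7 of the 8 both without and with bortezomib. Of 13 mitochondrially encoded genes, 1 was called higher and 1 lower (median -0.24), with 2 in each direction without a filter on low counts and 0 or 2 lower without any 1 of 7 libraries.

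**Figure D5:**
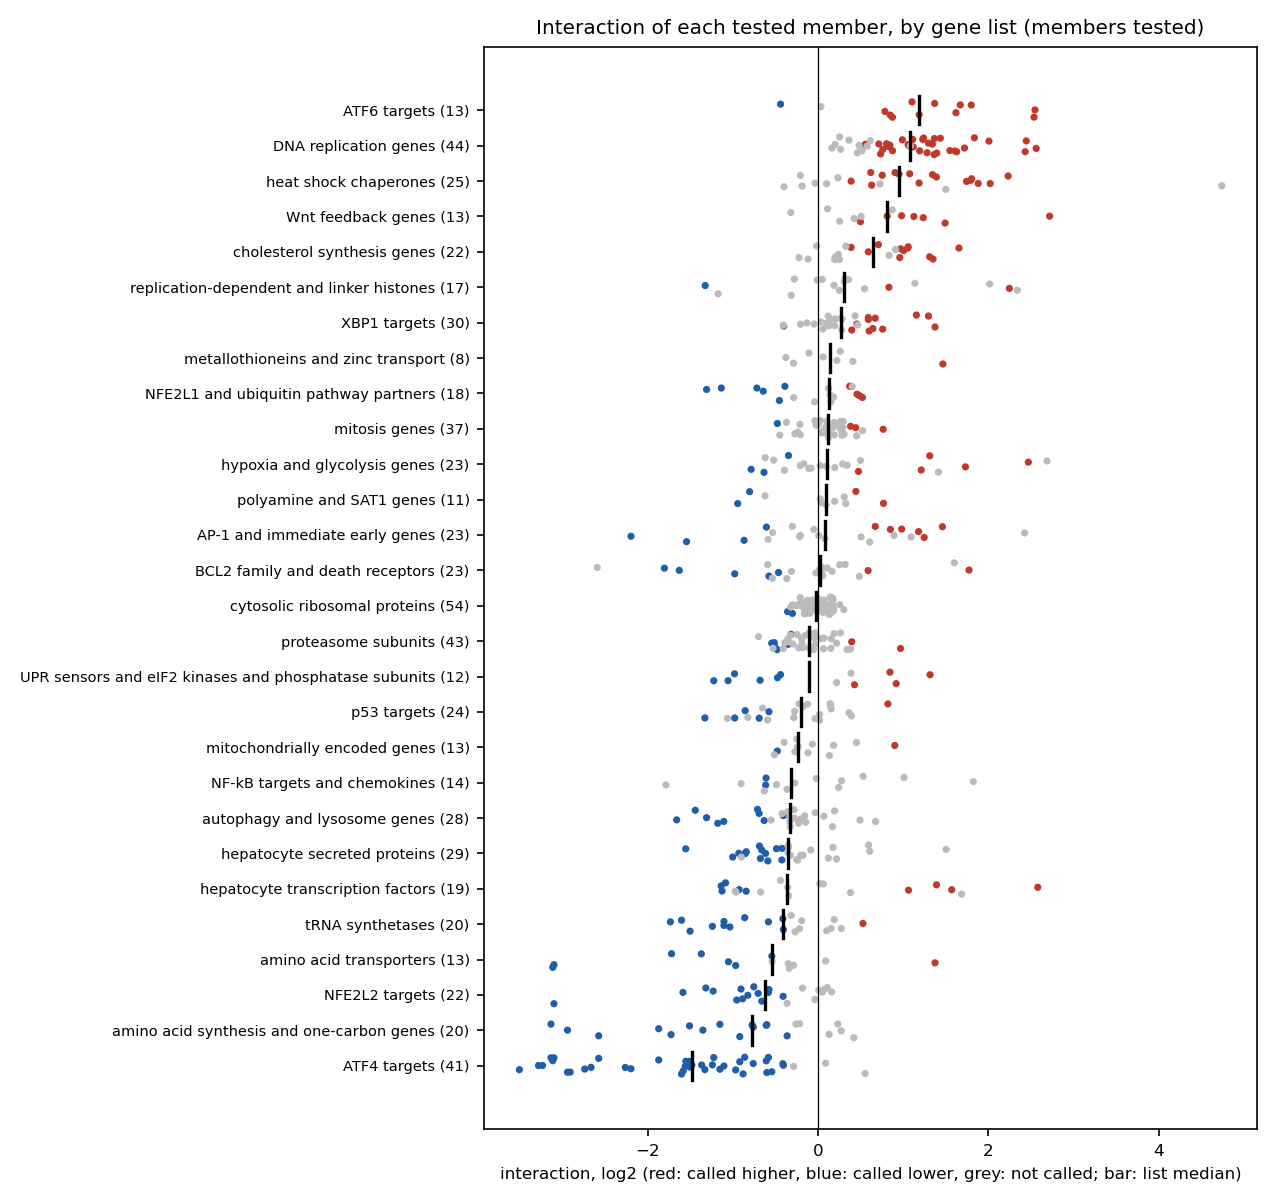
Interaction (log2, x axis) of each tested member of 28 gene lists with at least 8 members tested, ordered by list median (black bars), with the number tested in brackets. Red and blue members were called higher and lower. The ATF6 targets (median 1.19) and replication genes (1.08) lie at the top and the ATF4 targets (-1.48) at the bottom.

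*ANKRD1* (ENSG00000148677, chromosome 10, 92671853 to 92680844) and *CTGF*, both known targets of YAP and TEAD, were among the 5 genes called higher with the largest interactions at a mean of at least 5 CPM. *ANKRD1* held 22.8, 16.9, 15.8 and 16.05 CPM in DMSO, 18.4, 21.5, 22.4 and 17.7 in bortezomib, 4.06, 2.19, 4.80 and 4.02 in nelfinavir and 85.3, 82.8, 135 and 91.7 in the co-treatment. Nelfinavir lowered it without bortezomib and raised it with bortezomib (2.30, adjusted p = 1.1e-12), for an interaction of 4.54 (SE 0.253, adjusted p = 3e-15). *CTGF*, a matricellular protein gene, was at 34.96, 34.0, 43.8 and 38.3 CPM in DMSO, 2.99, 0.969, 5.07 and 7.99 in bortezomib, 11.8, 12.9, 11.2 and 9.99 in nelfinavir and 17.5, 12.9, 20.0 and 9.94 in the co-treatment (interaction 3.56, SE 0.355, adjusted p = 4.15e-09). Here the co-treatment lies below DMSO and above bortezomib, and overlaps nelfinavir. *KITLG*, the stem cell factor, was at 27.8 ± 1.79 CPM in DMSO, 4.41 ± 0.972 in bortezomib, 9.27 ± 2.19 in nelfinavir and 11.3 ± 5.88 in the co-treatment (SD, n = 4 each; interaction 2.92). *DEFB1*, an antimicrobial peptide gene, was lowered by both single agents and stood at 89.0 ± 9.28 CPM in the co-treatment against 48.5 ± 2.41 in DMSO (SD, n = 4 each; interaction 2.72, adjusted p = 1.3e-12). *MIR4435-1HG*, a long noncoding RNA, was at 232 ± 12.4 CPM in DMSO, 131 ± 15.6 in bortezomib, 98.6 ± 3.91 in nelfinavir and 247 ± 33.9 in the co-treatment (SD, n = 4 each; interaction 2.15).

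The genes called lower include some that both single agents raised, with co-treatment levels that ranged from near or below DMSO to above both single agents. *TNFSF14*, the cytokine LIGHT, held 10.2, 10.4, 11.3 and 9.68 CPM in DMSO, 19.2, 34.7, 35.7 and 31.1 in bortezomib, 24.95, 27.99, 45.1 and 43.0 in nelfinavir and 8.87, 11.1, 7.07 and 12.4 in the co-treatment. The co-treatment overlaps DMSO and lies below all single-agent libraries (interaction -3.37, SE 0.316, adjusted p = 1.03e-09). *RP11-284F21.10* (ENSG00000272405, chromosome 1, 156611458 to 156614679, minus strand), a noncoding gene, held 16.4, 12.7, 13.4 and 14.1 CPM in DMSO, 53.9, 46.5, 42.2 and 54.6 in bortezomib, 26.5, 20.8, 27.4 and 30.1 in nelfinavir and 5.49, 7.49, 7.66 and 13.1 in the co-treatment, which overlaps DMSO alone (interaction -3.41, adjusted p = 6.1e-11). *RDH12*, a retinol dehydrogenase gene, was at 1.24 ± 0.821 CPM in DMSO, 15.7 ± 3.31 in bortezomib, 4.84 ± 0.74 in nelfinavir and 6.32 ± 1.04 in the co-treatment (SD, n = 4 each; interaction -3.26, adjusted p = 1.98e-06). *TSC22D3*, a glucocorticoid-induced gene, had 3 counts in the 4 DMSO libraries together, so that no fold is given. Its levels were 1.92, 6.01, 2.96 and 6.26 CPM in bortezomib, 12.9, 8.13, 10.6 and 11.9 in nelfinavir and 19.2, 19.7, 13.9 and 16.1 in the co-treatment, the highest of the 4 groups.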

How the data were processed

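HepG2 cells were profiled by 3′ end RNA sequencing (80 bp reads) at 10 h in 24 libraries, 6 groups of 4. Libraries came from a forward-strand kit (Lexogen QuantSeq FWD). The authors trimmed reads with cutadapt 2.8, ran STAR against hg19 through an nf-core pipeline, counted reads over Ensembl GRCh37 models of protein-coding, lincRNA and antisense genes, and deposited raw read counts per gene. Which program counted the reads, with which strand option, and whether molecular identifiers were used is not given in the sources used here. Overlapping and antisense genes are therefore uncertain. Counts were filtered with filterByExpr (minimum count 5, minimum total 25; 12685 of 18915 genes kept), scaled with TMM and fitted in edgeR 4.0.16 (R 4.3.3) with 1 coefficient per group over the 24 libraries. The quasi-likelihood F test was adjusted by Benjamini-Hochberg over all genes tested, and a gene was called at an adjusted p under 0.05. SE and SD are on the log2 and CPM scales. Expectations were computed from group mean CPM as bortezomib times nelfinavir over DMSO (product) and bortezomib plus nelfinavir minus DMSO (sum). Named genes were, per direction, the 12 over 2-fold with the smallest p, the 5 with the largest interaction at 5 CPM or more, up to 4 called members of each gene list (or 1 where none was called), and 8 regulators. The text gives a selection of these, made after their values were seen, and other genes appear only as holders of a promoter motif or of a group at 0 counts. The members and lists were chosen with earlier results of these data known. Gene coordinates are those of GRCh37, and promoter windows are RefSeq's on GRCh38.p14 and were matched by symbol. Replicate numbers were not used as pairs. Alternatives were DESeq2 1.42.0, other scalings, filters and sets of libraries, and a replicate block.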

Additional observations from a re-analysis of the deposited data

Results flagged for a closer look

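The interaction is itself a test of whether the nelfinavir effect differs with and without bortezomib, and by it 1235 genes were called higher and 1269 lower (edgeR's quasi-likelihood test, adjusted p under 0.05). In 11 of 184 groups of 4 libraries, over the 46 genes whose levels are given by group, 1 library lay far from the other 3 by Dixon's test at the 95% level. That is 6.0% of the groups, and chance flags about 1 in 20. In DMSO, *ANKRD1* was at 22.8 CPM in replicate 1 against 15.8 to 16.9 in the others, *DTL* at 33.8 CPM in replicate 2 against 36.2 to 36.4, *INHBE* at 53.9 CPM in replicate 2 against 44.3 to 45.3 and *SLC7A11* at 35.8 CPM in replicate 2 against 30.7 to 31.2. *TSC22D3* had 0 CPM in DMSO replicate 4 against 0.116 to 0.14 in the others. In bortezomib, *HK2* was at 44.5 CPM in replicate 4 against 29.7 to 32.2. In nelfinavir, *HMGCS1* was at 89.8 CPM in replicate 1 against 107.7 to 109 and *SDF2L1* at 42.0 CPM in replicate 4 against 53.5 to 53.8. In the co-treatment, replicate 3 was the highest for *SDF2L1*, at 273 CPM against 229.6 to 235, for *ADM*, at 87.8 CPM against 55.3 to 59.9, and for *TRIB3*, at 576.5 CPM against 437 to 457.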

How the results depend on the processing

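No called gene changed direction under an alternative fit on the log2 scale. Against the sum of the changes in CPM, 28 of the 1269 genes called lower lie on the other side. The counts of the interaction over all genes stayed within 1.5 times, whereas several small counts within gene lists did not, as given beside them. The counts higher and lower were 1303 and 1186 with RLE factors, 1139 and 1250 with library totals alone, 1477 and 1379 in DESeq2, 1448 and 1027 without a filter on low counts, 1234 and 1291 with a stricter filter, and 1320 and 1149 when only the 16 libraries were fitted. Leaving out 1 library at a time gave 1050 to 1457 higher and 1014 to 1162 lower. With the replicate number as a block, 1290 were higher and 1305 lower, of which 1218 and 1232 were shared with the fit without it. Deviations from the group means correlated over 0.1 in 4 of 24 pairs with the same number and in 13 of 72 others. The median r was 0.00315 and -0.00716, and the highest 0.338 and 0.298, in the same order. These values do not show a pairing by number across the groups, and they cannot exclude one between some libraries. The position of the co-treatment level depends on the scaling, an alternative chosen after seeing the data: with library totals alone 643 of the genes called higher lay above both single agents and 996 of those called lower below both, against 896 and 847 with RLE factors. Depth limits genes with few counts, of which 171 tested genes had a group at 0.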
